A study of Mus musculus with 12 samples.

Results

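The glycolytic isozymes followed here are aldolase A and C (Aldoa, Aldoc), enolase 1 and 2 (Eno1, Eno2), lactate dehydrogenase A and B (Ldha, Ldhb), triosephosphate isomerase (Tpi1), hexokinase 1 (Hk1) and glyceraldehyde-3-phosphate dehydrogenase (Gapdh). Every probe set with exactly 1 of these 9 symbols in the platform annotation was taken, which gave 15 of 12488 probe sets for 8 of 8252 named genes. Of the 15, 9 were among the 12422 probe sets tested, for 7 genes, and 6 were the manufacturer's control sets for Gapdh. No probe set carried Eno1 as its single symbol, so enolase was read from Eno2 alone. A further 2 probe sets that name a member together with other genes were left out.

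RNA came from a single adult mouse of the NMR-1 strain and was hybridised to MG_U74Av2 arrays, Affymetrix oligonucleotide arrays of mouse transcripts. Liver, cortex and cerebellum were each measured by both of the procedures compared. In the 3X procedure, 1 ng of total RNA passed through 3 linear amplifications with the RiboAmp HS kit, and each tissue has 3 technical replicates (9 arrays). In the 1X procedure, 5 µg passed through 1 linear amplification by the standard Affymetrix protocol, and each tissue has 1 array (3 arrays). Since 1 animal gave all 12 arrays, p-values cover the technical spread between arrays and no spread between mice. Amount of RNA, kit and number of amplifications changed together and cannot be told apart.

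Glycolysis splits glucose into pyruvate, and lactate dehydrogenase interconverts pyruvate and lactate. Many of its steps are run by isozymes, enzymes that catalyse the same reaction from different genes. Liver also makes glucose by running much of the pathway in reverse, and it holds its own forms of aldolase and of the glucose-phosphorylating enzyme, whereas brain is a steady consumer of glucose and is known for Aldoc in astrocytes and Purkinje cells, Eno2 in neurons and Hk1.

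The promoters of the isozyme pairs and of Eno2 are printed here, and those of the other members are only counted. Each is a RefSeq window of assembly GRCm38.p6 from 250 bases before to 50 after a gene start, 300 bases in all. Where a gene has several starts, the window richest in G and C was taken. Capitals mark ACGTG or its reverse complement CACGT, letters found in sites of the hypoxia-inducible factors, and GGGCGG or its reverse complement CCGCCC, the core of the GC box bound by Sp1. The windows lie at chr7:126799205-126799504 on the minus strand (Aldoa), chr11:78322823-78323122 on the plus strand (Aldoc), chr6:124769624-124769923 on the minus strand (Eno2), chr7:46845554-46845853 on the plus strand (Ldha) and chr6:142507908-142508207 on the minus strand (Ldhb), and each sequence reads 5′ to 3′ along its gene.
Aldoa: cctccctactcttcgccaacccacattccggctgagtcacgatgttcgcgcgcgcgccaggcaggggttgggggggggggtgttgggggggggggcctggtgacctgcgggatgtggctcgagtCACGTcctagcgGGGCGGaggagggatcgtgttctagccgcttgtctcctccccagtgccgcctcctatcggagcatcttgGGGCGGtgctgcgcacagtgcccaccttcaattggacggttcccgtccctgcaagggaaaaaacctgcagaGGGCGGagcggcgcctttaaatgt
Aldoc: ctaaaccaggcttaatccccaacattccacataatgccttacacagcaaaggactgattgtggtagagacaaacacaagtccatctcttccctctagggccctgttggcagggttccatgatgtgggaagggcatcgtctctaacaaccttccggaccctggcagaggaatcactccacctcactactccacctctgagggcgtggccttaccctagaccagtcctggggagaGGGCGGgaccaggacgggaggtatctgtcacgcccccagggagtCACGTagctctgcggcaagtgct
Eno2: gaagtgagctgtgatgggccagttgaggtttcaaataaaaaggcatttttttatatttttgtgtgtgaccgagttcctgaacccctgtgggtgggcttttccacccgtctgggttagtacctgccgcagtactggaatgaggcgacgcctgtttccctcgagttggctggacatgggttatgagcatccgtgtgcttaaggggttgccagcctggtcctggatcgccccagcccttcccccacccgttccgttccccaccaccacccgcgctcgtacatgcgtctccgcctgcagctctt
Ldha: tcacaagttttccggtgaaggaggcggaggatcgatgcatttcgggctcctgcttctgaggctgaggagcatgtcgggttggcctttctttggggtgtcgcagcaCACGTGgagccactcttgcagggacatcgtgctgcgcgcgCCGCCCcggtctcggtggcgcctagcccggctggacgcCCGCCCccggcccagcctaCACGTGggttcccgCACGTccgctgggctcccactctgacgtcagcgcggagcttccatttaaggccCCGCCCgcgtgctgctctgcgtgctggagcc
Ldhb: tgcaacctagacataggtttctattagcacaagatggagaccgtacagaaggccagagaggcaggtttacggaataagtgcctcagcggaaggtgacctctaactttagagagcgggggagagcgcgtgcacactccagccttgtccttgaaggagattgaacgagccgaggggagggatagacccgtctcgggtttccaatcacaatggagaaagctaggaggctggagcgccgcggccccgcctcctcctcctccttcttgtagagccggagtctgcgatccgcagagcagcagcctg
The Ldha window holds 5 matches to ACGTG over both strands, since CACGTG reads the same on each and counts on both, and 3 to GGGCGG. Aldoa has 1 and 3, Aldoc has 1 and 1, and the Eno2 and Ldhb windows hold neither motif. All 9 genes have a promoter entry, 16 windows in all, some of which overlap. By gene, 5 carry ACGTG and 5 carry GGGCGG in any window. By window, 6 of the 16 hold ACGTG and 7 hold GGGCGG. Over all 32851 windows of this length, 19.6% hold ACGTG and 35.7% hold GGGCGG on either strand. A match describes these letters and not a bound site.

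The values are log2 signals, made by the authors with RMA, which gives no detection call. A probe set is called dim in a group when its mean there lies below the median of all probe sets tested, which was 3.44 to 3.48 over the 6 groups. No fold is given against a dim group, and levels are compared between tissues or procedures for 1 probe set at a time, never between probe sets. Within a tissue the 3X arrays correlated at r = 0.977 to 0.990 in liver, 0.990 to 0.994 in cortex and 0.992 to 0.994 in cerebellum, across probe sets. Liver 3X replicate 3 stood apart from the other liver replicates and was nearest to the liver 1X array (r = 0.928, against a lowest value of 0.893), and the main results it moves are given without it too. Of 10 hepatocyte markers 8 were called higher in liver than in brain, and of 7 neuron markers 4 were called lower. At 3X the summed linear signal of the hepatocyte markers was 13924.4 to 24256.3 in liver, against 2139.5 to 2303.0 in cortex and 921.3 to 1073.1 in cerebellum, where Ttr (log2 signal 11.12 in liver and 9.73 in cerebellum; not called) made up most of the sum in both brain regions, and that of the neuron markers was 576.0 to 701.1, 1145.4 to 1697.8 and 933.3 to 1145.0 in the same order.

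**Figure D1:**
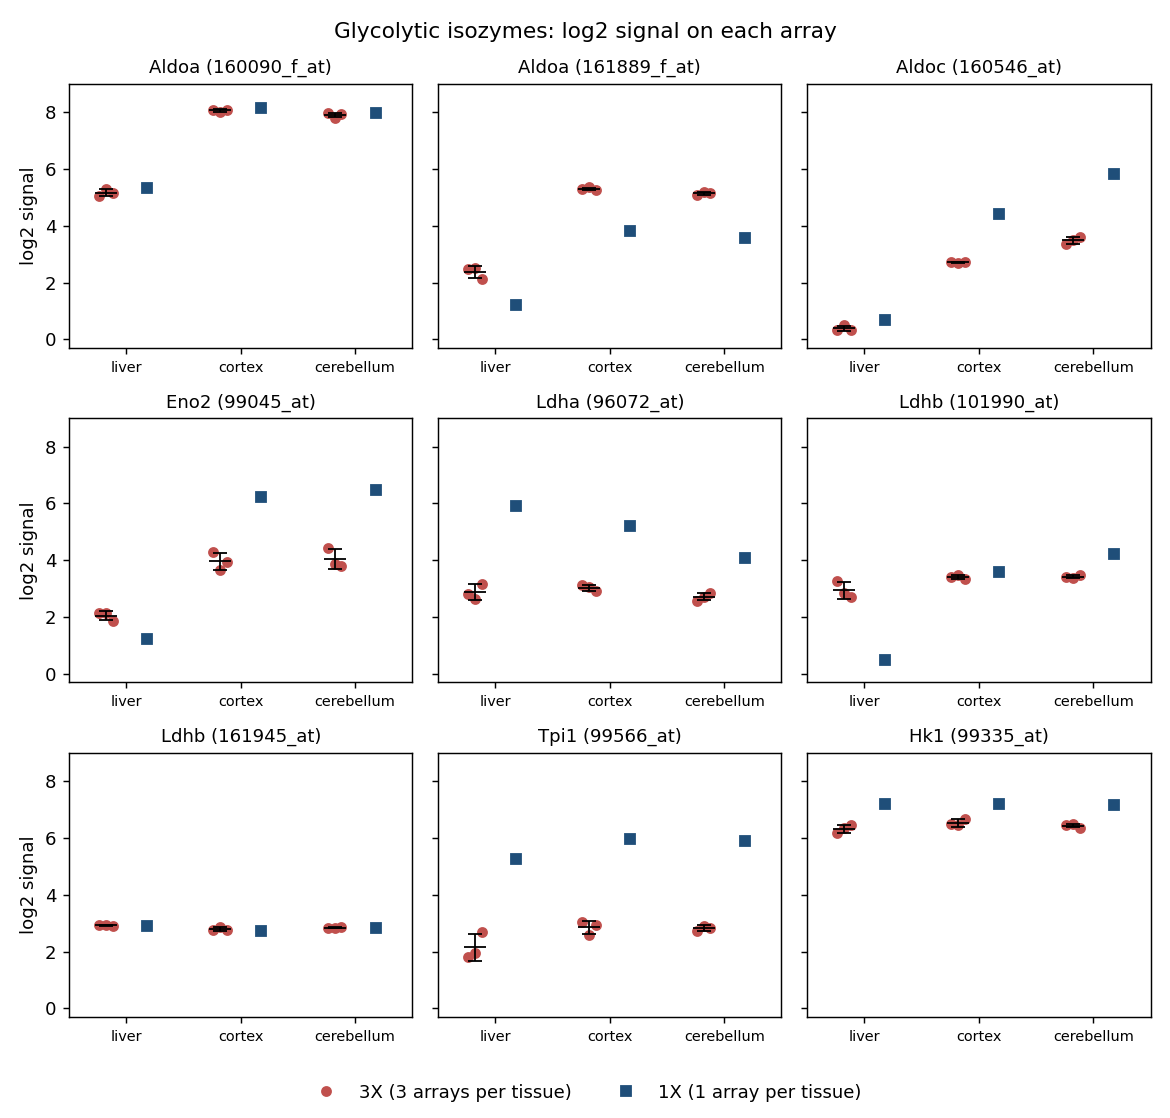
Log2 signal (y axis) of the 9 tested isozyme probe sets on each of the 12 arrays, by tissue (x axis), with 3X arrays as circles and the 1X array as a square; the line and bar are the mean and SD of the 3 3X arrays. Aldoa, Aldoc and Eno2 lie far lower in liver than in either brain region, the second Ldhb set stays near 1 level, and Tpi1, Ldha and Hk1 lie lower at 3X.

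The first question was which isozymes differ between liver and brain at 3X. Aldoa, Aldoc and Eno2 were far lower in liver, Ldhb and Tpi1 were lower by less, and Ldha and Hk1 did not pass the test. In limma, liver was compared with the average of both brain regions, with p adjusted by Benjamini-Hochberg over all 12422 sets and a call at adjusted p under 0.05. Of the 9 probe sets, 6 were called lower in liver and 0 higher, where 12.3% of all probe sets were called lower, 8.17% higher and 20.4% in either direction. Without overlap of the arrays, 5 sets lay lower in liver and 1 higher, where 11.3% and 9.1% of all probe sets did. The median difference of the 9 was -0.69, against 0.01 over all probe sets. In whole tissue, fewer cells of a type and less RNA per cell cannot be told apart.

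Aldolase cleaves fructose bisphosphate into the triose phosphates, and Aldoa is the form known from muscle and many other tissues. Its brighter probe set (160090_f_at) read 5.06, 5.29 and 5.14 on the liver 3X arrays, against 8.07, 8.01 and 8.09 in cortex and 7.95, 7.81 and 7.94 in cerebellum. Every liver array lay far below every brain array, and the brain regions lay close together. Liver was lower, at a log2 difference of -2.81 ± 0.07 (SE; 3 liver and 6 brain arrays), 7.03-fold, with a limma adjusted p of 1.5e-09. The second Aldoa probe set (161889_f_at) averaged 2.37 ± 0.21 in liver, where it was dim, against 5.30 ± 0.04 in cortex and 5.14 ± 0.06 in cerebellum (SD, n = 3 each). Its difference was -2.85 ± 0.09 (adjusted p = 4.64e-09), so both probe sets moved by nearly the same amount. The suffix of both marks probes shared with related transcripts, and the share of each transcript in their signal was not tested.

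Aldoc, the aldolase of brain, read 0.34, 0.49 and 0.34 in liver, against 2.72, 2.69 and 2.71 in cortex and 3.35, 3.50 and 3.60 in cerebellum at 3X. The 3 tissues formed 3 separate bands, with liver lowest and cerebellum highest. Liver lay at a difference of -2.32 ± 0.09 from cortex and -3.09 ± 0.09 from cerebellum, and of -2.70 ± 0.08 from both together (adjusted p = 1.8e-09). Both liver and cortex were dim, so these differences are not measured ratios of RNA.

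Enolase makes phosphoenolpyruvate late in the pathway, and Eno2 is its neuron form, widely used as a neuronal marker. It read 2.14, 2.15 and 1.87 in liver, where it was dim, against 4.29, 3.67 and 3.92 in cortex and 4.44, 3.87 and 3.80 in cerebellum. All liver arrays lay below all brain arrays, and the brain regions overlapped. The difference was -1.95 ± 0.17 (adjusted p = 1.21e-05). Of the 7 neuron markers above, among which Eno2 was not counted, 4 were called lower in liver too. Syt1 and Syp were not called, and Nefl was level, at 2.28 in liver, 2.27 in cortex and 2.31 in cerebellum. The part of these markers in the isozyme differences was not tested.

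Lactate dehydrogenase is a tetramer of A subunits, typical of muscle and liver, and B subunits, typical of heart. Ldha read 2.83, 2.63 and 3.18 in liver, against 3.11, 3.06 and 2.92 in cortex and 2.58, 2.72 and 2.84 in cerebellum. The groups overlapped, and the difference of 0.01 ± 0.12 (95% interval -0.25 to 0.26; adjusted p = 0.983) did not pass. Leaving out liver replicate 3, the highest liver array, gave -0.14 (adjusted p = 0.356). The first Ldhb set (101990_at) read 3.27, 2.85 and 2.69 in liver, against 3.40, 3.47 and 3.35 in cortex and 3.41, 3.37 and 3.46 in cerebellum. The liver arrays lay below the brain arrays without overlap, at -0.47 ± 0.11 (adjusted p = 0.0131). The call was lost without liver replicate 2 (-0.43, adjusted p = 0.0597), and without replicate 3 it stood at -0.35 (adjusted p = 0.0376). The second Ldhb set (161945_at) went the other way, with 2.92 ± 0.02 in liver, against 2.80 ± 0.07 in cortex and 2.84 ± 0.02 in cerebellum (SD, n = 3 each), and its difference of 0.10 ± 0.06 was not called (adjusted p = 0.321). All 3 lactate dehydrogenase probe sets were dim in every 3X group.

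Tpi1 interconverts the triose phosphates and has no isozyme here. It read 1.79, 1.95 and 2.70 in liver, against 3.03, 2.59 and 2.95 in cortex and 2.72, 2.92 and 2.83 in cerebellum, dim throughout. Liver replicate 3 overlapped the brain arrays. The difference was -0.69 ± 0.18 (adjusted p = 0.0203) with all arrays and -0.97 (adjusted p = 1.12e-04) without liver replicate 3, and it was not called without replicate 1 (-0.52, adjusted p = 0.0949) or replicate 2 (-0.59, adjusted p = 0.092). Against cerebellum alone Tpi1 missed the threshold with all arrays (-0.67 ± 0.21, adjusted p = 0.0517) and passed without liver replicate 3 (-0.95, adjusted p = 3.57e-04). Against cortex it stood at -0.71 with all arrays (adjusted p = 0.0407) and at -0.99 without that replicate (adjusted p = 2.63e-04). With each region taken alone, 6 probe sets were called lower in liver than in cortex, where 10.1% of all were, and 5 lower than in cerebellum, where 10.2% were. The 5 called against both regions are both Aldoa sets, Aldoc, Eno2 and the first Ldhb set, and a call against both held for 7.45% of all probe sets. The calls of Ldhb against a single region were lost without most single arrays (adjusted p up to 0.103 against cortex and 0.1 against cerebellum), and so was that of Tpi1 against cortex (up to 0.145).

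Hk1 phosphorylates glucose at the start of the pathway and is the main hexokinase of brain. It read 6.17, 6.34 and 6.46 in liver, against 6.48, 6.44 and 6.68 in cortex and 6.45, 6.48 and 6.36 in cerebellum. The liver and brain arrays overlapped, all above the median of all probe sets. The difference of -0.16 ± 0.09 did not pass (adjusted p = 0.25), with a 95% interval of -0.35 to 0.03.

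The 1X arrays give these tissue differences from the larger input, without a test because each tissue has 1 array. Aldoa kept a like distance, with a liver minus brain difference of -2.81 at 3X and -2.73 at 1X for the first probe set and of -2.85 and -2.49 for the second. Eno2 stood at -1.95 at 3X and -5.12 at 1X, where its signals were 1.23 in liver, 6.21 in cortex and 6.49 in cerebellum. Aldoc stood at -2.70 and -4.44 in the same order, from 1X signals of 0.67, 4.41 and 5.82. Ldha was higher in liver by 1.27 at 1X (5.90 in liver, 5.19 in cortex and 4.07 in cerebellum), where 3X gave 0.01. The first Ldhb set lay at -3.43 at 1X (0.49 in liver, 3.60 in cortex and 4.23 in cerebellum), where 3X gave -0.47. Tpi1 (-0.69 at 3X and -0.66 at 1X), Hk1 (-0.16 and 0.03) and the second Ldhb set (0.10 and 0.13) lay close to their 1X differences. The sign was the same at both for 8 of the 9 probe sets, and the size was smaller at 3X for 5. The median size over the 9 was 0.69 at 3X and 2.49 at 1X, against 0.12 and 0.18 over all probe sets. The 3X values are means of 3 arrays per tissue and the 1X values are single arrays, which vary more, so the sizes are not a like comparison. In liver at 1X, Eno2, Aldoc, the second Aldoa set and both Ldhb sets were dim, so their 1X differences are not measured ratios of RNA.

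**Figure D2:**
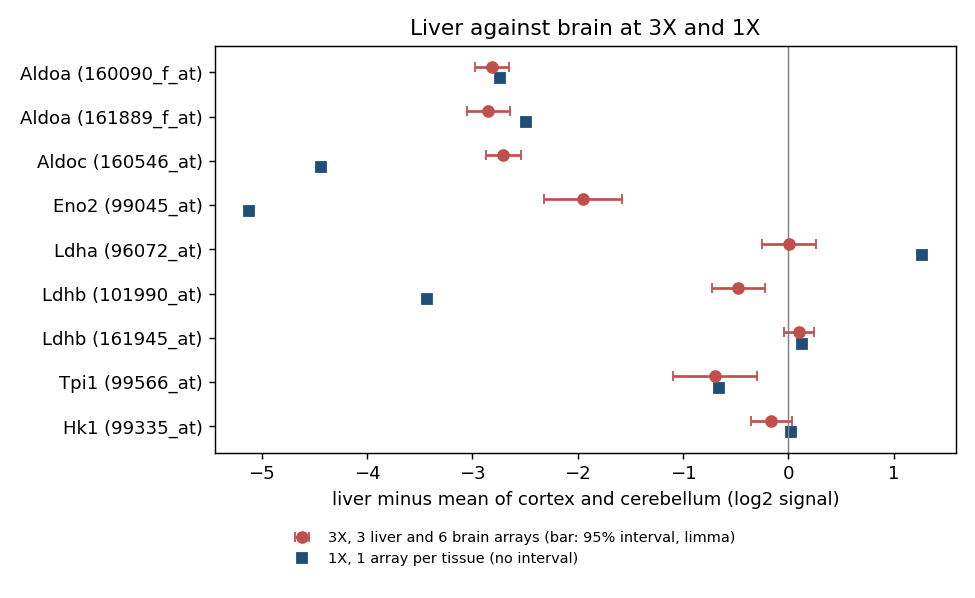
Liver minus the mean of cortex and cerebellum in log2 signal (x axis) for the 9 tested isozyme probe sets (y axis), at 3X (circles, with limma's 95% interval) and at 1X (squares, 1 array per tissue). Aldoa keeps its difference between procedures, while Aldoc, Eno2, Ldha and the first Ldhb set lie nearer to 0 at 3X.

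Between the brain regions, 1 of 9 probe sets was called, where 0.628% of all probe sets were called lower in cortex and 1.06% in either direction. This was Aldoc, lower in cortex than in cerebellum at a difference of -0.78 ± 0.09 (SE, n = 3 each; adjusted p = 0.00129), with the array values given above and no overlap. Aldoc had the same order at 1X, at -1.41 on 1 array each. Fitting all 12 arrays additively gave -0.93 and ended the call (adjusted p = 0.253). Ldha was the next largest, with cortex arrays all above the cerebellum arrays at 0.31 ± 0.13, but did not pass (adjusted p = 0.545), and at 1X it stood at 1.12. Without overlap of the arrays, 1 set lay lower in cortex and 3 higher (both Aldoa sets and Ldha), where 8.56% and 7.87% of all probe sets did. Eno2 (-0.07), Hk1 (0.10), Tpi1 (0.04), both Aldoa sets (0.16 each) and both Ldhb sets (-0.01 and -0.04) were not called.

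Marker lists of other cells also differed between the cortex and cerebellum samples. The oligodendrocyte list summed to 365.2 to 402.1 in cortex, against 713.9 to 915.7 in cerebellum, with 1 of 5 measured markers called. The astrocyte list, without Aldoc, summed to 1096.0 to 1494.5 in cortex and 736.2 to 1029.8 in cerebellum, with 0 of 5 called. That sum follows Slc1a2 (10.16 in cortex and 9.56 in cerebellum), whereas Aqp4 (4.83 and 5.37) and S100b (5.60 and 6.02) ran the other way, as did the list's mean log2 signal (5.45 and 5.54). Of 6 cerebellar granule and Purkinje cell markers, 4 were called lower in cortex, and their sum was 76.5 to 83.6 in cortex, against 197.3 to 257.6 in cerebellum. The kidney tubule list was also lower in cortex, with 6 of 7 markers called and sums of 111.3 to 123.9 in cortex, against 263.1 to 275.8 in cerebellum and 120.5 to 133.4 in liver. Of 5 forebrain neuron markers, 3 were called higher in cortex, with sums of 125.9 to 179.3 in cortex, against 64.3 to 78.2 in cerebellum. Of 3 erythrocyte markers, 1 was called lower in cortex, with sums of 113.8 to 126.6 in cortex, against 147.0 to 153.4 in cerebellum. RMA leaves no marker at exactly 0. The part of any of these lists in the Aldoc difference was not tested.

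To compare isozymes, the difference of the log2 signals of a pair was taken within each array, and that difference was then compared between tissues. Aldolase and lactate dehydrogenase gave 2 pairs. An exact two-sided permutation test of liver against brain over 84 placings was used, with a smallest possible p of 0.0119. Aldoc minus Aldoa averaged -4.77 ± 0.04 in liver, against -5.35 ± 0.03 in cortex and -4.42 ± 0.16 in cerebellum at 3X (SD, n = 3 each). Liver fell between the brain regions, and the difference from brain of 0.11 did not pass (exact permutation p = 0.702, 0.702 over the 2 pairs). After quantile normalization of the arrays it was 0.77 (exact permutation p = 0.0357). The test takes both brain regions as 1 group, so with liver between them it cannot show a difference from each region alone. Aldoc was dim in liver and cortex at 3X, which limits this pair. Between cortex and cerebellum the aldolase pair lay at -0.93 with no overlap, where 20 placings allow no p below 0.1 and the exact permutation p was 0.1. At 1X the pair differed by -1.71 between liver and brain, the opposite sign from 3X, with -4.65 in liver, -3.74 in cortex and -2.15 in cerebellum.

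Ldhb minus Ldha read 0.45, 0.22 and -0.48 in liver, against 0.29, 0.41 and 0.44 in cortex and 0.83, 0.65 and 0.62 in cerebellum. Liver replicate 3 was the low array, and replicate 1 lay above the cortex arrays. The liver minus brain difference of -0.48 missed the threshold (exact permutation p = 0.0595, 0.119 over the 2 pairs), and with quantile normalization it was -0.51 (p = 0.0476). Without liver replicate 3 it was -0.21 (exact permutation p = 0.214), and without replicate 1 it was -0.67 (exact permutation p = 0.0357). The p-values of these alternatives are not adjusted over the pairs. Cortex lay below cerebellum at -0.32 (exact permutation p = 0.1, the smallest possible). At 1X the same pair spread widely, with -5.41 in liver, -1.59 in cortex and 0.16 in cerebellum, a liver minus brain difference of -4.69. The second Ldhb set gave 0.10 at 3X in place of -0.48.

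The second question was how the isozyme signals differed between the 3X and 1X procedures. Tpi1, Ldha, Aldoc, Eno2 and Hk1 were lower at 3X, 1 Aldoa set was higher, and the other Aldoa set and both Ldhb sets did not pass. In an additive limma fit with tissue, 5 of 9 probe sets were called lower at 3X and 1 higher, where 19.5% of all probe sets were called lower, 37.5% higher and 56.9% in either direction. The median 3X minus 1X difference was -0.76 over the 9 probe sets and 0.12 over all.

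Among the 9 tested sets Tpi1 fell most, by 3.11 ± 0.16 on the log2 scale (adjusted p = 2.41e-07). It averaged 2.15 ± 0.48 at 3X, against 5.28 at 1X, in liver, 2.86 ± 0.23 against 5.96 in cortex and 2.82 ± 0.10 against 5.90 in cerebellum (3X mean ± SD, n = 3). A gene above the median in every tissue at 1X was thus dim in every tissue at 3X. Ldha had a 3X minus 1X difference of -2.18 ± 0.23 (adjusted p = 3.17e-05), and Aldoc one of -1.44 ± 0.27 (adjusted p = 0.00123). Hk1 kept nearly the same level everywhere at 1X (7.20 in liver, 7.18 in cortex and 7.17 in cerebellum) and was lower at 3X, at -0.76 ± 0.08, 1.69-fold (adjusted p = 2.67e-05). For all of these, every 3X array lay below the 1X array of its tissue, as it did for the first Aldoa set and for 15.9% of all probe sets.

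The Aldoa probe sets parted between the procedures although their tissue differences were alike. The first set differed by -0.11 ± 0.06 between 3X and 1X (adjusted p = 0.169), or 0.10 after quantile normalization, with 1X signals of 5.32 in liver, 8.15 in cortex and 7.96 in cerebellum. The second was higher at 3X by 1.41 ± 0.09 (adjusted p = 1.3e-06), with 1X signals of 1.20, 3.80 and 3.58, and every 3X array lay above the 1X array of its tissue, as for 36.9% of all probe sets. Eno2 was lower at 3X, at -1.29 ± 0.48 (adjusted p = 0.0393) in the fit over all tissues, although liver differed in direction from the brain regions. The Eno2 call was lost without the 1X cortex array (-0.82, adjusted p = 0.24), without the 1X cerebellum array (-0.72, adjusted p = 0.282) and without any 1 of the 6 brain 3X arrays (adjusted p = 0.0547 to 0.0639). The Ldhb sets differed by 0.48 ± 0.44 (adjusted p = 0.367) and 0.04 ± 0.05 (adjusted p = 0.526). Without the liver 1X array the first Ldhb set stood at -0.50 (adjusted p = 0.0185), the other sign.

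Whether the 3X minus 1X difference depended on tissue was tested by the interaction, in which each lone 1X array is assumed to vary like the 3X replicates. It was called for 4 of 9 probe sets, against 10.4% of all. The first Ldhb set differed by 2.45 in liver, -0.20 in cortex and -0.81 in cerebellum (3X minus 1X; adjusted p = 5.24e-05). Eno2 had a positive difference in liver (0.82) and negative ones in cortex (-2.25) and cerebellum (-2.45; adjusted p = 0.000339). In liver, Ldhb, Eno2 and Aldoc were dim in both procedures, so their liver values are not measured ratios of RNA. Aldoc differed by -0.28 in liver, -1.70 in cortex and -2.33 in cerebellum (adjusted p = 8.3e-05), and Ldha by -3.02, -2.16 and -1.36 in the same order (adjusted p = 0.00612). Where a signal was highest at 1X among the tissues, its 3X signal was lowest relative to it in these 4 genes; the 1X signal enters both quantities. Without the liver 1X array, liver leaves the test and only cortex is compared with cerebellum. Then none of the 9 was called, with 44 calls over all probe sets against 1294 with all arrays, and Ldha was lost without the cerebellum 1X array (adjusted p = 0.0762). Tpi1 lost nearly the same in each tissue (-3.13 in liver, -3.10 in cortex and -3.08 in cerebellum) and was not called, and neither were Hk1, the second Ldhb set and both Aldoa sets, of which the second passed after quantile normalization (adjusted p = 0.0171).

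Gapdh, the dehydrogenase that makes bisphosphoglycerate and a common reference gene, was read by 6 control sets. They probe the 5′, middle and 3′ regions of its transcript in both orientations: sets ending _at detect the usual antisense target, and sets ending _st the sense target. For 3X against 1X, an exact two-sided permutation test swapped the 1X label among the 4 arrays of each tissue, where 64 placings give a smallest p of 0.0156, and all 6 sets reached it. The 3 _at sets were lower at 3X in every tissue and the 3 _st sets higher. Every 3X array of the _at sets lay below the 1X array of its tissue, as for 15.9% of the probe sets tested. For the _st sets every 3X array lay above it, as for 36.9%. The 5′ _at set read 5.41, 5.45 and 5.12 in liver at 3X, against 9.54 at 1X. In cortex it read 7.03, 7.07 and 7.15 at 3X, against 11.13 at 1X, and in cerebellum 6.94, 6.93 and 6.99, against 10.84. Its difference was -4.05 (16.5-fold), that of the 3′ _at set was -2.80 (6.94-fold), and that of the middle _at set was -5.22, with 3X signals that were dim in all tissues.

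In the sense orientation the signals went up. The 3′ _st set differed by 1.78 (3.43-fold higher at 3X), the 5′ _st set by 2.73 (6.65-fold) and the middle _st set, dim at 1X, by 2.42. The 5′ _st set averaged 6.53 ± 0.20 at 3X, against 4.38 at 1X, in liver, 7.61 ± 0.29 against 4.43 in cortex and 7.31 ± 0.15 against 4.44 in cerebellum (3X mean ± SD, n = 3). The 1X signals of the 3 tissues were nearly equal, while at 3X liver stood below the brain regions. Across tissues at 3X, all 6 control sets were lower in liver than in brain without overlap, where 11.3% of the probe sets tested were (exact permutation p = 0.0119 each, the smallest that 84 placings allow). The differences were -0.95 for the 3′, -1.69 for the 5′ and -0.72 for the middle _at set, and -0.48, -0.93 and -0.54 for the _st sets in the same order. At 1X the _at sets gave -1.08, -1.44 and -1.57 and the _st sets -0.25, -0.05 and -0.28.

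**Figure D3:**
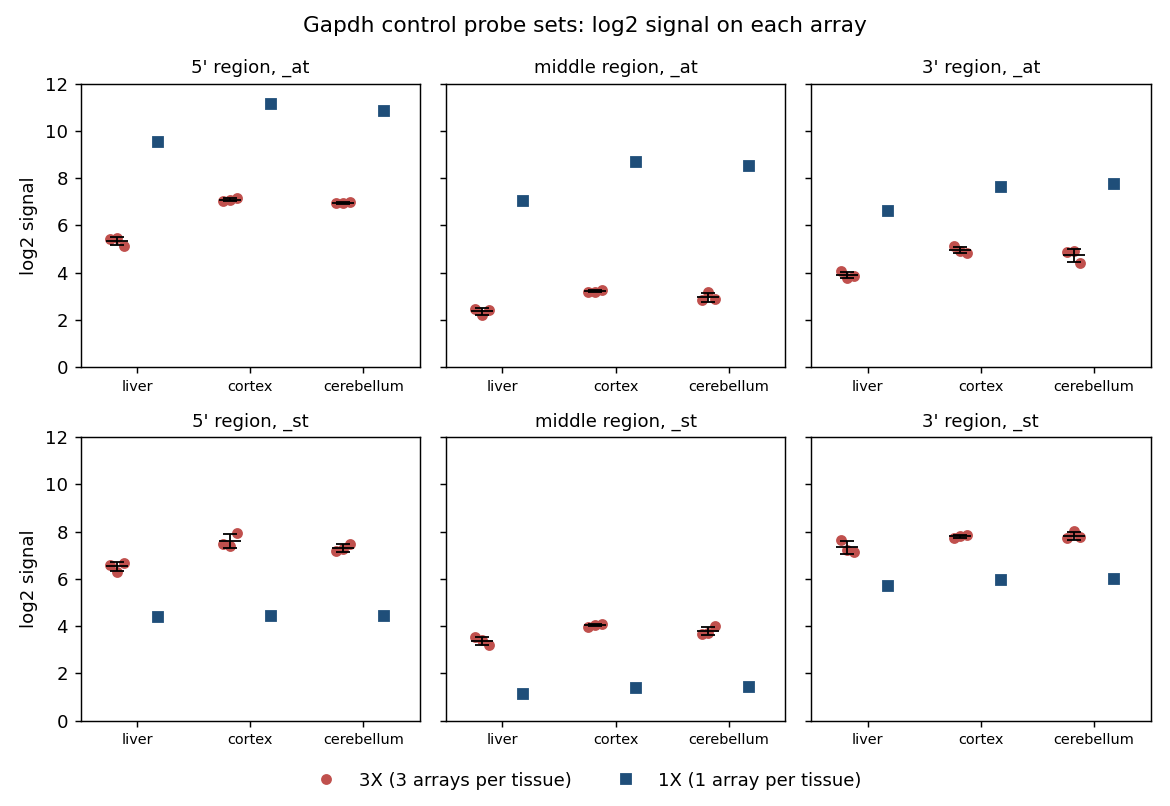
Log2 signal (y axis) of the 6 Gapdh control sets on each array by tissue (x axis), with 3X arrays as circles, their mean and SD as line and bar, and the 1X array as a square. All 3 _at sets (top) lie lower at 3X than at 1X and all 3 _st sets (bottom) lie higher, in every tissue.

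The other genes of the pathway were read from a list of 34 glycolysis, glucose transport and lactate transport genes, of which 25 were measured. Liver against brain at 3X, 3 were called higher in liver, 6 lower and 16 not, with a median of 0.01, set beside 8.17% higher and 12.3% lower over all probe sets. Higher in liver were the glucose transporter Slc2a2 (1.52 ± 0.26), liver pyruvate kinase Pklr (0.93 ± 0.10, 1.90-fold) and the cytosolic glycerol-3-phosphate dehydrogenase Gpd1 (0.39 ± 0.09). Lower were the mitochondrial glycerol-3-phosphate dehydrogenase Gpd2 (-1.87 ± 0.15), phosphoglycerate mutase Pgam1 (-1.85 ± 0.14), phosphoglycerate kinase Pgk1 (-0.96 ± 0.30), bisphosphoglycerate mutase Bpgm (-0.95 ± 0.14), pyruvate kinase Pkm (-0.64 ± 0.09) and muscle phosphofructokinase Pfkm (-0.50 ± 0.09). Limma adjusted p ranged over these 9 up to 0.0485 for Pgk1, whose arrays overlapped and whose call was lost without liver replicate 1 (-0.64, adjusted p = 0.203) and without 6 other single arrays. At 3X, Slc2a2 was dim in both brain regions, and Gpd2 and Pgam1 were dim in liver, so their differences are not measured ratios of RNA. The Gpd2 set has the same suffix as the Aldoa sets. At 1X it was dim in every tissue and its difference was -0.69. The pyruvate kinase isozymes moved in opposite directions, Pklr higher and Pkm lower in liver, and at 1X they stood at 1.47 and -4.06. Between 3X and 1X, 7 of the 25 were called higher at 3X, 4 lower and 14 not, set beside 37.5% higher and 19.5% lower over all probe sets. Between cortex and cerebellum 0 of 25 were called by limma, and 3 had an unadjusted p under 0.05. Gpd2, named after its values were seen, was the 1 call with a replicate block, from the cortex and cerebellum arrays only, or without liver replicate 3.

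**Figure D4:**
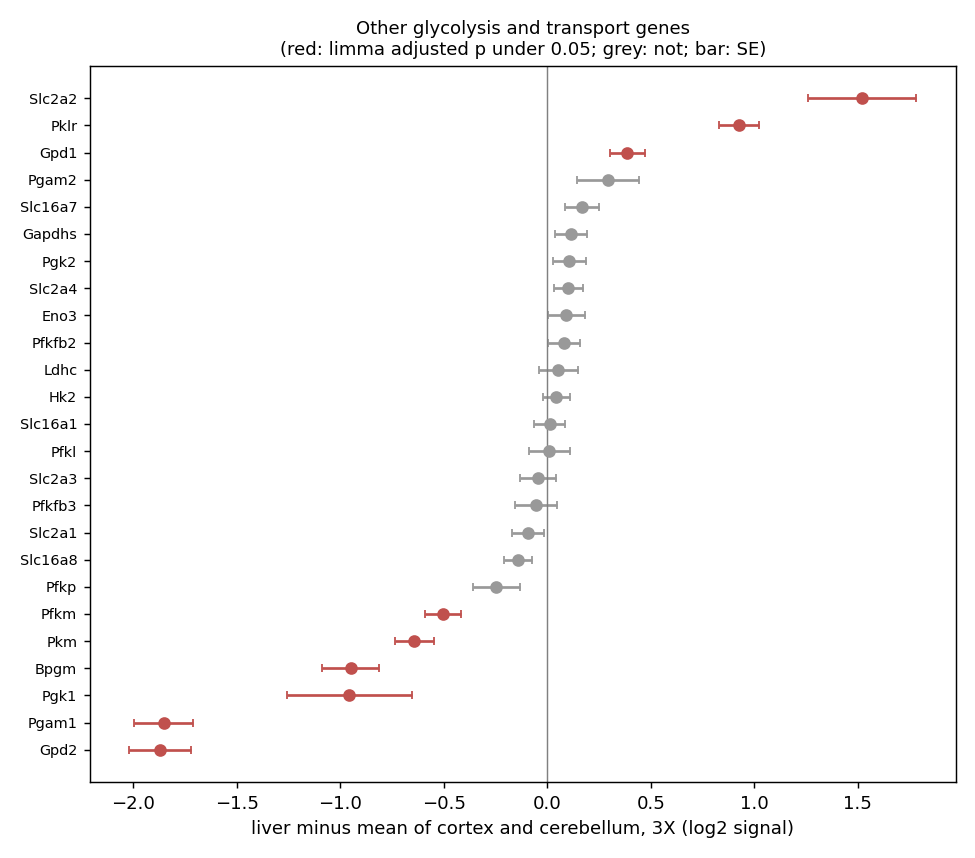
Liver minus the mean of cortex and cerebellum at 3X in log2 signal (x axis; bar: limma SE) for the 25 measured genes of the list (y axis), with red for adjusted p under 0.05. Slc2a2, Pklr and Gpd1 lie higher in liver and 6 genes lie lower.

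The genes whose pattern over the 6 group means was nearest to each isozyme were found by the root mean square difference of centred log2 signals, as a description over points that share arrays and tissues. Aldoa was nearest to Gap43 (0.22, Pearson's r = 0.989) and Stmn4 (0.23, r = 0.988). Aldoc was nearest to Scd2 (0.19, r = 0.996) and Car2 (0.33, r = 0.996), and Eno2 to Dnm1 (0.39, r = 0.980) and Scd2 (0.39, r = 0.980). Ldha lay nearest to Copz1 (0.29, r = 0.971) and Psma4 (0.36, r = 0.957), and Ldhb to Ncam1 (0.36, r = 0.955) and Tagln3 (0.39, r = 0.950). Tpi1 was matched by Ubl5 (0.12, r = 0.998) and Ctnnb1 (0.16, r = 0.996), and Hk1 by Abce1 (0.02, r = 0.998) and Ext2 (0.03, r = 0.997).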

How the data were processed

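The deposited log2 signals, 1 value per probe set and array, were made by the authors with RMA, per the submitters' processing notes. RMA corrects background, equalises probe distributions by quantile normalization and summarises each probe set, steps that can compress differences. The sources used here give neither the version of RMA nor its log base, nor do they say if the arrays were run together. Base 2 was inferred from the highest value, 14.46, since a 16-bit scanner could reach only 11.09 in natural logarithms. Symbols came from the platform annotation, and promoter windows from RefSeq, GRCm38.p6. For arrays, depth has no count, and their number limits the precision.

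Two-sided moderated tests were made with limma 3.58.1 (lmFit and eBayes, under R 4.3.3) on the 12422 non-control probe sets, with 3 tissue means over the 9 3X arrays, tissue and procedure as additive terms over the 12 arrays for 3X against 1X, and 6 group means for the interaction. Isozyme pairs and Gapdh controls were tested by exact permutation with scipy 1.17.1. The planned enolase pair could not be made without an Eno1 probe set, so pair p-values were adjusted over 2 pairs. A gene with several probe sets was represented by the brightest set without a suffix, or else the brightest. Named were all members, up to 10 called pathway genes with the largest liver difference, and the 2 genes nearest to each member. Members, lists and rules were chosen with earlier results of these data known.

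On simulated arrays with 200 changed probe sets, limma recovered 60% of changes of 0.5 and 96% of changes of 1 for liver against brain. For the interaction it recovered 32% of changes of 1. The simulated noise was independent and normal, with the SD of each probe set among 3X replicates used for the 1X arrays too. No other tissue or procedure differences were simulated, so these shares are not the power in the real data. Deviations of same-numbered 3X replicates in different tissues correlated at -0.099 to 0.342 (9 pairs). Replicates with unlike numbers gave -0.359 to 0.248 (18 pairs), a range that overlaps but lies lower. By number, the values were 0.003 to 0.272 for replicate 1, -0.099 to 0.238 for replicate 2 and 0.294 to 0.342 for replicate 3. The main tests left the numbers out, and a replicate block was fitted as an alternative for the 3X tissue comparisons. Whether arrays of the same number shared a processing step was not tested. Alternatives were other normalizations, filters, arrays and eBayes settings, a mean per gene, a replicate block and leaving out each array.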

Additional observations from a re-analysis of the deposited data

Results flagged for a closer look

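The 3X minus 1X difference varied between the tissues by limma's interaction test for 4 of the 9 tested probe sets, where 10.4% of all were called. The adjusted p was 5.24e-05 for Ldhb (101990_at), whose signal was higher at 3X in liver and lower in both brain regions. It was 8.3e-05 for Aldoc, 0.000339 for Eno2 and 0.00612 for Ldha. Without the liver 1X array the test compares only cortex with cerebellum, and none of the 9 was called there (adjusted p from 0.445 for Aldoc up to 1.0). In liver, Ldhb, Aldoc and Eno2 were dim in both procedures. No group held enough arrays for a test of single outlying arrays.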

How the results depend on the processing

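Each test was repeated under the alternatives that apply to it, with dim probe sets left out above the median level. Of 1209 values for single genes and lists under an alternative, 1123 kept their direction and side of the threshold. Of the others, 55 lost the call, 7 gained one, 18 changed sign and 6 counts moved. Some values could not change direction, so the tally is no measure of robustness. The size of the interaction is never negative, and leaving out a cerebellum array does not alter the difference between liver and cortex. Among probe sets above the median level, the calls were 1607 for liver against brain, 1347 against cortex and 1341 against cerebellum (3 isozyme sets each). They were 3685 for 3X against 1X (3 isozyme sets) and 804 for the interaction (1 isozyme set), since fewer sets were tested. No share over the sets kept is given, so these isozyme counts are not read as a result about the isozymes. Of the isozyme sets, only both Aldoa sets, Eno2 and Hk1 lay above that level. For cortex against cerebellum 0 of these were called, and Aldoc, left out by the filter, was not tested there. Asking for a call against each region left 1549. Cortex against cerebellum gave 262 calls from those arrays alone and 82 to 250 without single arrays, and no isozyme set in the additive fit of all 12 arrays. For 3X against 1X, a mean per gene gave 4586 and tissues as units 4690, where Aldoc (adjusted p = 0.0813) and Eno2 (0.258) were not called. Without single arrays the interaction gave 44 to 1814 calls and 0 to 4 isozyme sets. After quantile normalization the aldolase pair stood at 0.77 (exact permutation p = 0.0357) and the lactate dehydrogenase pair at -0.51 (p = 0.0476). At 1X they stood at -1.71 and -4.69, and with the second Ldhb set the lactate dehydrogenase pair gave 0.10 (exact permutation p = 0.595); without single arrays it ranged from -0.67 to -0.21. The mean of both Ldhb sets stood at -0.19 against brain (adjusted p = 0.109), -0.17 against cortex and -0.20 against cerebellum, opposite in sign to the second set alone and not called. In the additive fit the first set lost its call (-1.21, 0.0529). For 3X against 1X the first Aldoa set stood at 0.10 after quantile normalization, the mean of both Aldoa sets at 0.65 (adjusted p = 2.45e-05), and the second Ldhb set at -0.061 after quantile normalization. Ldha against cortex was 0.064 in the additive fit. Without single arrays the sign changed for uncalled values only, except 3X against 1X for Ldhb (-0.50 to 1.13): Ldha against brain spanned -0.14 to 0.13, and between brain regions Tpi1 spanned -0.049 to 0.17, Eno2 -0.24 to 0.13 and Ldhb -0.040 to 0.020. Pgk1 also lost its call with median centring (adjusted p = 0.0515) and with trend and robust eBayes (0.076). With the replicate block, calls were 2729 for liver against brain and 170 for cortex against cerebellum, the isozyme pair differences were as before (exact permutation p from 0.111 to 0.815), Tpi1 against cerebellum passed (-0.67, adjusted p = 0.0361) and no other isozyme call changed. No block could be fitted for 3X against 1X, since the 1X arrays carry no number. The causes were not tested. Ldha, Ldhb and Tpi1 were dim in every 3X group, which limits their 3X tissue differences.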
